A study of Mus musculus with 5 samples.

Results

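Metallothioneins and the enzymes that handle oxidants and electrophiles were examined in the gut of mice given aspirin, aspirin after LG21 or teprenone, LG21 without aspirin, or vehicle alone. The set is a list of 10 genes chosen by their function, Mt1, Mt2, Hmox1, Nqo1, Gclc, Gclm, Gpx2, Txnrd1, Sod1 and Prdx1, out of 19938 genes with a probe set naming them alone. All 10 were measured and all lay above the filter on low values, a mean over the 5 arrays above 7.41 on the log2 scale, which 9969 genes passed. A probe set is the group of array probes that reports on a transcript. Where a gene had several, the probe set with the highest mean was used, which concerned only Prdx1 among the 10.

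RNA was profiled on Affymetrix Mouse Gene 1.0 ST arrays, with 1 array in each of 5 groups. All groups were healthy male ddY mice, an outbred stock, aged 5 weeks, given a pair of oral administrations 0.5 hours apart, with gut taken 4 hours after the last. The groups were GA+GA (Gum Arabic and again Gum Arabic, the control), LG21+GA (Lactobacillus gasseri OLL2716, then Gum Arabic), GA+Asp (Gum Arabic, then aspirin), Tep+Asp (teprenone, a mucosal protective drug, then aspirin) and LG21+Asp (Lactobacillus gasseri OLL2716, then aspirin). Every group thus received an oral load on both occasions, and no group received teprenone without aspirin. Doses, and whether an array holds the RNA of 1 mouse or of a pool, are not stated in the labels. With 1 array a group no difference could be set against the spread between mice, so none was tested and none carries an error.

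Values are the authors' log2 values after RMA, a method that corrects background, normalizes arrays and summarises probes. Array medians ran from 6.95 to 6.98. Of the genes above the filter, 68.9% had exactly equal values on at least a pair of arrays, and so did 3 of the 10 genes described here, Gclc, Txnrd1 and Prdx1. Of the gastric epithelium markers 13 of 15 measured were above the filter, against 8 of 16 of small intestinal epithelium and 21 of 27 of hepatocytes. The tissue labelled gut therefore carried stomach transcripts on every array. In bulk tissue, fewer cells of a type and less RNA per cell cannot be told apart.

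Metallothioneins are small cysteine-rich proteins that bind zinc and copper. Their genes are switched on by the zinc-sensing factor MTF1, by glucocorticoids and by oxidants. Most of the other genes belong to the response run by NRF2, the product of Nfe2l2, which KEAP1 holds back until electrophiles or oxidants modify it, and which BACH1 opposes at Hmox1. In the stomach these enzymes help protect epithelium that is exposed to acid, food chemicals and drugs such as aspirin.

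The factors named above bind short elements in promoters. RefSeq promoter windows (build GRCm38.p6, 250 bases before to 50 after a gene's start) were found for 8 of the 10 genes, all but Hmox1 and Gclc. The core of the antioxidant response element was searched as TGACNNNGC and that of the metal response element as TGCACNC or TGCGCNC, on both strands. The Mt2 window is chr8:94172368-94172667 and the Mt1 window chr8:94178839-94179138, both on the plus strand. They are shown because both of these neighbouring genes hold several metal element cores. The Nqo1 window, chr8:107403156-107403455 on the minus strand, is shown because Nqo1 had the widest gap of the 10 genes between arrays with and without aspirin. Capitals mark matches, and sequences run 5′ to 3′.
Mt2: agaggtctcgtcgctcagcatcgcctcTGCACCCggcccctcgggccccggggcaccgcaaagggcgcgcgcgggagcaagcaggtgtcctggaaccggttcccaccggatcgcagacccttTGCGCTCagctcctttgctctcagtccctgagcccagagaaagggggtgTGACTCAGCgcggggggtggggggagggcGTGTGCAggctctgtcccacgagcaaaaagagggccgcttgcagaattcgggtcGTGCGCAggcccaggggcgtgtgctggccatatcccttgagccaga
Mt1: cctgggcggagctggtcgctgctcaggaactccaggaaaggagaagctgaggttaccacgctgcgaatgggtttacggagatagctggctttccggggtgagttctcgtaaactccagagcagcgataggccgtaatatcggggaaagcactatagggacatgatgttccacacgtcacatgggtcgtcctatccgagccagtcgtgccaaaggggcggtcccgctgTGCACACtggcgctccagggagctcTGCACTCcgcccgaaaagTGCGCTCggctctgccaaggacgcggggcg
Nqo1: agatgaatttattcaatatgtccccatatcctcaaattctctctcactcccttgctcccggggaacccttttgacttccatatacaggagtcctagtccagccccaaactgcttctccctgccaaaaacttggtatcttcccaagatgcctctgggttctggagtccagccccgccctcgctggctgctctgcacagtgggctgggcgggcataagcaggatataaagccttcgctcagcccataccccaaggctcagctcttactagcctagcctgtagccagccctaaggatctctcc

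The Mt2 window held 4 metal element cores and 1 antioxidant core, from position -79 to -71 counted from the start, while the Mt1 window held 3 metal cores and 0 antioxidant cores. The Gclm window also held 3 metal cores. Its single antioxidant core overlapped 1 of these. A metal core occurred in 25.7% of the 32851 promoter windows of this length and 3 or more in 1.97%. An antioxidant core was matched once each in Gclm, Prdx1, Sod1 and 1 of the 3 Txnrd1 windows, and in 12.4% of all windows. The Nqo1 and Gpx2 windows held neither. Such matches describe letters only.

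No gene of the set was far apart between any groups compared. Counting those at least 1.2-fold apart, 0 of 10 passed between GA+Asp and the control, the comparison for aspirin alone, where 1.91% of genes above the filter did. None passed between LG21+GA and the control, LG21 alone, where 1.31% did. The count was also 0 for LG21 before aspirin, set against GA+Asp (1.85% of all genes), and for teprenone before aspirin, set against the same array (1.38%). It was 0 again for aspirin in mice given LG21, where the baseline was LG21+GA (1.79%), and for LG21+Asp against Tep+Asp (1.35%). With so few genes passing at all, 0 of 10 is near the background. Comparisons against GA+GA share that array, and those against GA+Asp share that one.

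**Figure D1:**
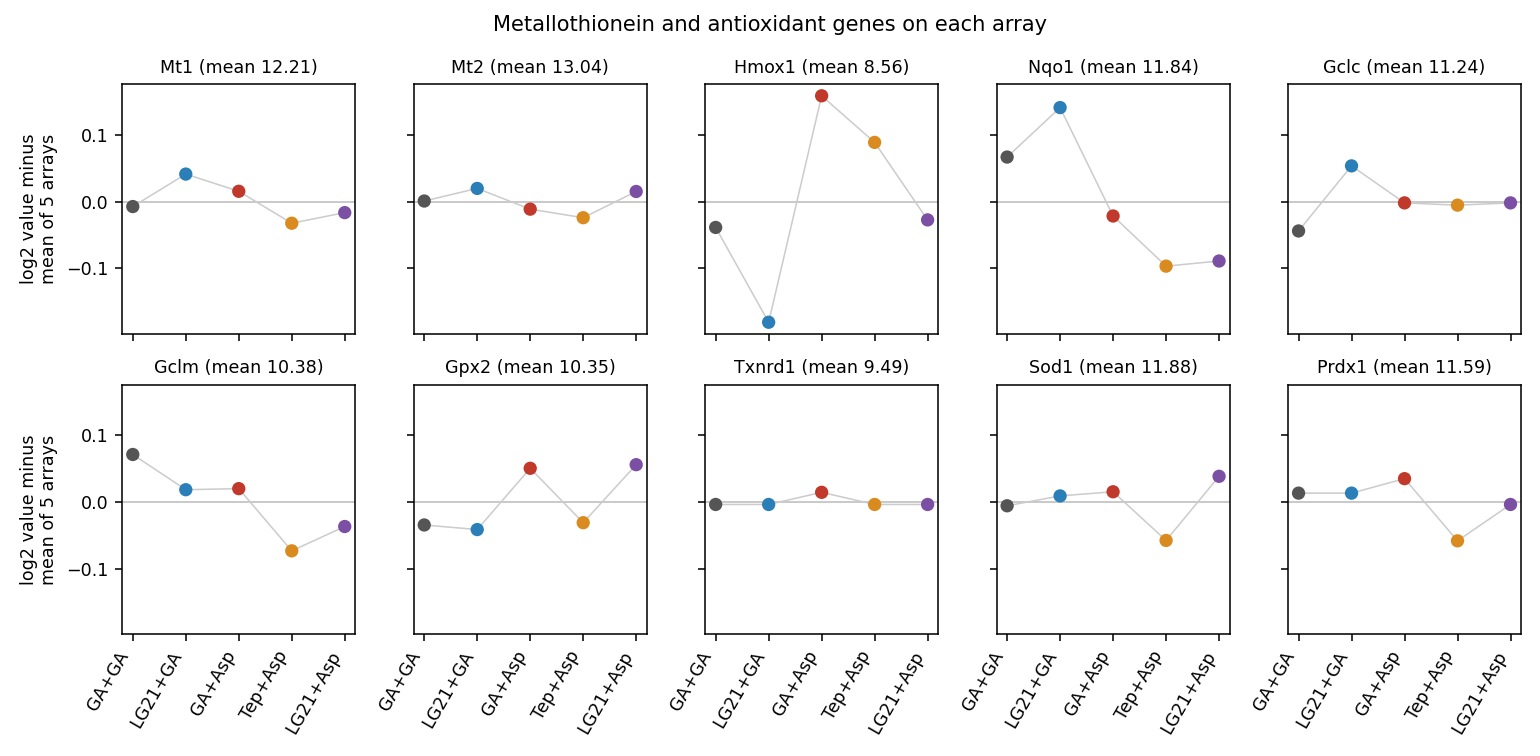
Log2 value of each of the 10 genes on the 5 arrays, less the gene's mean over the arrays (vertical axis, same scale in every panel; grey lines only join the points of a gene). Hmox1 and Nqo1 have the widest ranges, 0.34 and 0.24, and Txnrd1 the narrowest, 0.02.

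Hmox1, which encodes the inducible enzyme that breaks heme down to biliverdin, iron and carbon monoxide, had the widest range of the 10. Its log2 level was 8.52 in GA+GA and 8.38 in LG21+GA, and 8.72, 8.65 and 8.53 in GA+Asp, Tep+Asp and LG21+Asp. All 3 aspirin arrays were above both arrays without aspirin, but LG21+Asp lay only 0.01 above the control.

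Aspirin alone went with a level 1.15-fold higher (a difference of 0.20), and LG21 alone with a difference of -0.14. LG21+Asp differed from GA+Asp by -0.19 and from LG21+GA by 0.15. Within LG21-treated and Gum Arabic-treated mice alike, the aspirin array was the higher. Between aspirin arrays, and between those without, the LG21 array was the lower. A difference as far from 0 was found for 3.81% of all genes with aspirin alone, 5.95% with LG21 alone and 4.56% for LG21 before aspirin. The whole range, 1.27-fold, was reached by few genes, 3.18% having one at least as wide. Hmox1 was the only member with a range of at least 1.2-fold, which 5.8% of all genes had.

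Hmox1 is abundant in macrophages that clear red cells. Of 17 measured macrophage and dendritic cell markers 10 were above the filter. With aspirin alone 0 of these were 1.2-fold apart, near the 1.91% of all genes, and Hmox1 was not either. Mrc1 was 0.33 higher in Tep+Asp than in GA+Asp. With LG21 alone 5 markers lay below 0 and 4 above, Slc40a1 furthest at -0.13. For LG21 before aspirin 4 lay below and 3 above, Slc40a1 again furthest at -0.15. Their summed linear level ran from 4310 in LG21+Asp to 4610 in Tep+Asp and was 4420 in GA+GA and 4330 in GA+Asp. The part of these cells in the Hmox1 values was not tested.

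Nqo1, a quinone reductase and a standard readout of NRF2 activity, went the other way. Its log2 level stood at 11.90 in GA+GA, 11.98 in LG21+GA, 11.81 in GA+Asp, 11.74 in Tep+Asp and 11.75 in LG21+Asp. The 3 aspirin arrays all lay below both others, with a gap of 0.09 between the nearest arrays of each kind.

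In LG21-treated mice Nqo1 was 1.17-fold lower with aspirin (-0.23), as far from 0 as 2.32% of all genes. The difference with aspirin alone was -0.09, as far as 20.8% of genes. The contrast of these differences, the LG21 by aspirin interaction, was -0.14, as far from 0 as 14.8% of genes, so it did not stand out. At least 1.2-fold interactions were found for 3.48% of all genes and 0 of the 10. LG21+Asp and Tep+Asp differed by only 0.01.

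Across the set, 2 genes were higher (Hmox1 and Gpx2) and 1 was lower (Nqo1) in all 3 aspirin arrays than in both others. Among all genes above the filter the shares were 8.68% and 3.8%. The aspirin arrays differ in pretreatment and are no replicates, so this is a description of order alone. The background itself moved with the normalization, to 21.7% higher and 4.97% lower with quantile normalization and to 8.77% and 12.6% with cyclic loess.

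Gpx2, the glutathione peroxidase of gastrointestinal epithelium, stood at 10.32 in GA+GA, 10.31 in LG21+GA, 10.40 in GA+Asp, 10.32 in Tep+Asp and 10.41 in LG21+Asp. Its Tep+Asp value lay with the arrays without aspirin, so the separation rests on less than 0.01. The differences with aspirin were 0.08 in Gum Arabic-treated and 0.10 in LG21-treated mice.

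Gclc and Gclm encode the catalytic and modifier subunits of glutamate-cysteine ligase, the rate-limiting enzyme of glutathione synthesis. Gclc stood at 11.20 in GA+GA, 11.30 in LG21+GA and 11.24 in each of GA+Asp, Tep+Asp and LG21+Asp. The LG21+GA array was the highest by 0.06, and LG21+Asp equalled GA+Asp exactly.

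Gclm stood at 10.45 in GA+GA, 10.40 in LG21+GA and in GA+Asp, 10.31 in Tep+Asp and 10.35 in LG21+Asp. The control was thus the highest for Gclm and the lowest for Gclc, so the subunits of the enzyme did not share an order. The Gclm range of 0.14 was met or passed by 24.6% of all genes.

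The metallothionein genes were nearly level. Mt1 stood at 12.20 in GA+GA, 12.25 in LG21+GA, 12.22 in GA+Asp, 12.17 in Tep+Asp and 12.19 in LG21+Asp, a range of 0.07. Mt2 stood at 13.04, 13.06, 13.03, 13.02 and 13.06 in the same order, a range of 0.04. Both were highest in LG21+GA and lowest in Tep+Asp, with different orders between. At least as wide a range as that of Mt1 was found in 58.7% of all genes and as that of Mt2 in 76.1%. The highest value in the whole table was 13.87, above the highest Mt1 value of 12.25 and the highest Mt2 value of 13.06. Whether the scale of the arrays limited these values was not tested.

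Sod1, the cytosolic superoxide dismutase, stood at 11.87 in GA+GA, 11.89 in LG21+GA and in GA+Asp, 11.82 in Tep+Asp and 11.92 in LG21+Asp. Prdx1, a peroxiredoxin that reduces hydrogen peroxide, stood at 11.60 in GA+GA and LG21+GA, 11.62 in GA+Asp, 11.53 in Tep+Asp and 11.58 in LG21+Asp. Tep+Asp was the lowest array for both.

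The other Prdx1 probe set disagreed, with 11.30 in GA+GA, LG21+GA and Tep+Asp, 11.33 in GA+Asp and 11.20 in LG21+Asp. There LG21+Asp was the lowest, and its difference from Tep+Asp was -0.10 in place of 0.05. Txnrd1, the cytosolic thioredoxin reductase, stood at 9.49 on 4 arrays, equal to every deposited digit, and at 9.51 in GA+Asp. It was the flattest of the set, and 89.7% of all genes had at least as wide a range.

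**Figure D2:**
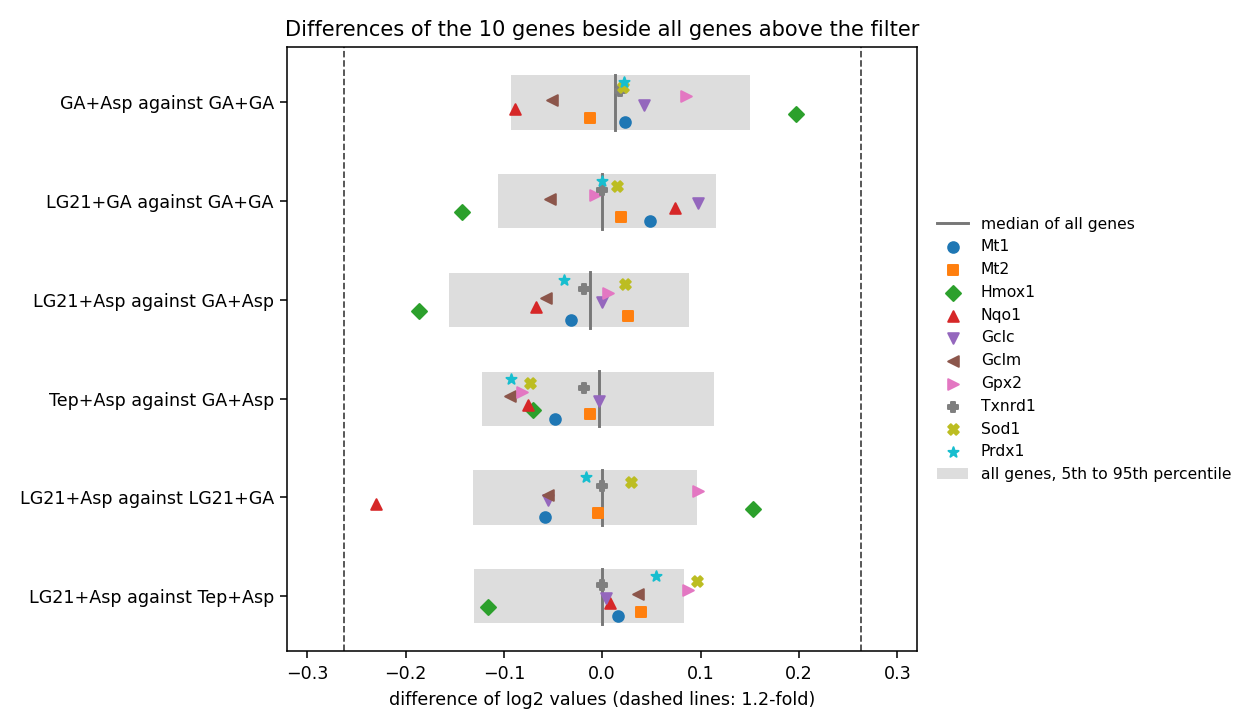
Difference of log2 values in the 6 comparisons (rows) for the 10 genes (symbols), beside all 9969 genes above the filter (grey bars from the 5th to the 95th percentile, line at the median). No symbol reaches the dashed lines at 1.2-fold; Hmox1 lies outside the grey bar in 4 rows, Gpx2 in 2, Nqo1 and Sod1 in 1 each, and all 10 symbols of the row Tep+Asp against GA+Asp lie below 0.

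Taking 1.1-fold in place of 1.2-fold, a threshold chosen after the values were seen, Hmox1 alone passed with aspirin alone (9.18% of all genes), with LG21 alone (6.33%) and for LG21 before aspirin (9.2%). Hmox1 and Nqo1 passed for aspirin in LG21-treated mice (6.62%). None passed for Tep+Asp against GA+Asp (7.33%) or for LG21+Asp against Tep+Asp (6.13%), and Nqo1 alone passed in the interaction (15.7%). The median difference of the 10 genes was 0.02 with aspirin alone and 0.01 with LG21 alone, beside 0.01 and 0.00 for all genes. It was -0.03 for LG21 before aspirin, beside -0.01.

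Teprenone before aspirin gave small differences of 1 sign. All 10 genes were lower in Tep+Asp than in GA+Asp, by between 0.09 (Gclm and Prdx1) and less than 0.01 (Gclc), with a median of -0.07. Among all genes 51.8% lay below 0, but exact ties enter that share. Of all 9969 genes 5162 lay below 0, 2880 above, and 1927 were equal, against 0 equal of the 10. Tep+Asp was strictly the lowest of the 5 arrays for 6 of the 10, Mt1, Mt2, Nqo1, Gclm, Sod1 and Prdx1, and for 13.8% of all genes. LG21+GA was strictly the highest for 4, Mt1, Mt2, Nqo1 and Gclc, and for 15.5% of all genes. These counts were chosen after the values were seen. With quantile normalization and with cyclic loess, 7 of the 10 lay below 0, Mt2, Gclc and Txnrd1 dropping out, beside 48.9% and 43.2% of all genes. On the deposited values some related lists leaned the same way. Below 0 lay 30 of 39 other NRF2 targets above the filter, with 5 above 0. For glutathione transferases it was 14 of 19, with 3 above 0, and for the thioredoxin and peroxiredoxin system 12 of 17, with 3 above 0. These lists share genes. On the list of superoxide and peroxide removal and production, 2 of 8 lay below 0 and 5 above. Smooth muscle and fibroblast markers were higher in Tep+Asp, 13 of 13 lying above 0 with a median of 0.12, and the squamous epithelium markers had a median of 0.82 over the 10 above the filter and of 0.30 over all 19 measured. The part of these cells in the lower values was not tested.

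The genes whose levels followed Hmox1 and Nqo1 most closely were sought over the 5 arrays, by the Euclidean distance between log2 values less each gene's mean. Nearest to Hmox1 were Ints8 (distance 0.06), Fchsd2 (0.07), Bhlha15 (0.07), Cdca7 (0.07) and Med29 (0.08). Bhlha15 encodes a transcription factor of secretory cells, and Ints8 a subunit of the Integrator complex. Nearest to Nqo1 were Mogat1 (0.04), Cmtm7 (0.05), Mxd1 (0.05), Acaa2 (0.05) and Agmo (0.06). Mogat1 encodes an acyltransferase of lipid synthesis, Acaa2 a thiolase of mitochondrial fat oxidation, and Mxd1 a partner of MAX that opposes MYC. None of the other 9 members was among the 5 nearest to either gene.

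**Figure D3:**
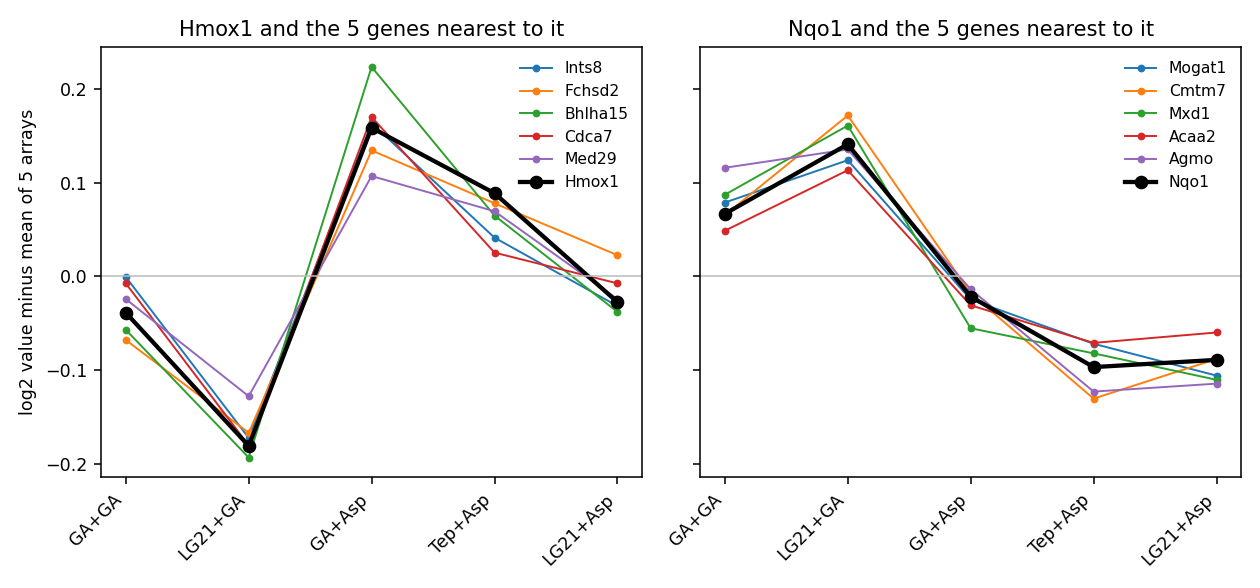
Log2 value less the gene's mean over the 5 arrays (vertical axis) for Hmox1 and Nqo1 (black) and the 5 genes nearest to each (colours); lines only join the points of a gene. Every gene of the left panel is lowest in LG21+GA and highest in GA+Asp, and every gene of the right panel is highest in LG21+GA, as the choice of nearest genes makes likely.

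The regulators of these genes also differed by less than 1.2-fold. Nfe2l2 stood at 11.97 in GA+GA, 11.94 in LG21+GA, 11.95 in GA+Asp, 11.89 in Tep+Asp and 11.92 in LG21+Asp. Keap1 was listed at 7.98 on all 5 arrays. Bach1 stood at 9.26 in GA+GA, 9.40 in GA+Asp and 9.29 on the other 3. Mtf1 stood at 8.42 in GA+Asp, 8.32 in LG21+GA and 8.38 on the other 3. Of 13 NRF2 pathway regulators above the filter, 0 were 1.2-fold apart in any of the 6 comparisons, beside 439 of all 9969 genes. With so few genes passing, 0 of 13 is near the background. Not all were flat: Park7 differed by -0.23 for teprenone before aspirin, where the 1st percentile of all genes was -0.21. Sqstm1 differed by 0.16 with aspirin alone, where the 95th percentile was 0.15.

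Further genes of redox, iron and zinc handling, 133 of them above the filter, were counted in the same way. In all 6 comparisons the share 1.2-fold apart was larger than among all genes. The lists were chosen with earlier results of these data known, so the larger shares are a description only and were not tested. With aspirin alone 1 was higher and 4 were lower, or 3.76% beside 1.91% of all genes. With LG21 alone 2 were higher and 3 lower, or 3.76% beside 1.31%. The counts were 1 higher and 4 lower for LG21 before aspirin (3.76% beside 1.85%), and 3 higher and 1 lower for teprenone before aspirin (3.01% beside 1.38%). For aspirin in LG21-treated mice 0 were higher and 6 lower (4.51% beside 1.79%), and between LG21+Asp and Tep+Asp 1 was higher and 3 were lower (3.01% beside 1.35%). Hpx, one of the hepatocyte markers, was among the genes apart in all 6 comparisons. The 39 other NRF2 targets had a median of 0.01 with aspirin alone, with 1 of them 1.2-fold higher and 0 lower.

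That gene was Slc7a11, the cystine importer that feeds glutathione synthesis. It stood at 8.84 in GA+GA, 9.08 in LG21+GA, 9.36 in GA+Asp, 9.32 in Tep+Asp and 9.05 in LG21+Asp. The control was the lowest array and GA+Asp the highest, 0.52 apart, while LG21+Asp lay 0.31 below GA+Asp and level with LG21+GA, so arrays with and without aspirin overlapped.

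Of the 4 genes lower with aspirin alone, 3 were on the list of heme and iron handling, Hpx, Cp and Cybrd1, and the other was Mgst1. Hpx, the heme-binding plasma protein hemopexin and itself one of the hepatocyte markers, stood at 9.42 in GA+GA, 8.56 in LG21+GA, 6.82 in GA+Asp, 7.31 in Tep+Asp and 7.93 in LG21+Asp. Cp, the plasma ferroxidase ceruloplasmin, differed by -0.88 with aspirin alone and by -0.50 with LG21 alone. Cybrd1, a ferric reductase of the epithelial surface, stood at 11.02 in GA+GA, 10.81 in LG21+GA, 10.61 in GA+Asp, 10.37 in Tep+Asp and 10.60 in LG21+Asp.

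All 3 genes were lower on every aspirin array than on both others. They were the only ones of 17 on the heme and iron list above the filter, beside 3.8% of all genes. On that list 1 gene was higher on every aspirin array, beside 8.68%. The summed linear level of the 27 measured hepatocyte markers ran from 33300 in GA+GA to 11800 in GA+Asp, and was 25200 in LG21+GA, 19000 in LG21+Asp and 13800 in Tep+Asp. The marker Apoa1, which enters that sum, was high and level, at 12.65 in GA+GA and 12.68 in GA+Asp. With aspirin alone 19 of the 21 above the filter were 1.2-fold lower. The median difference of the 21 was -2.83, beside -2.61 for Hpx, which is 1 of them. The part of hepatocyte transcripts in the values of Hpx and Cp was not tested.

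Mt4, the metallothionein of stratified squamous epithelium, varied far more than Mt1 and Mt2. It stood at 7.51 in GA+GA, 7.70 in LG21+GA, 7.39 in GA+Asp, 8.03 in Tep+Asp and 6.74 in LG21+Asp. The highest and lowest of these were both aspirin arrays, 1.30 apart. The summed linear level of 19 measured squamous epithelium markers was likewise highest in Tep+Asp (17600) and lowest in LG21+Asp (9070), against 13600 in GA+GA. Their part in the Mt4 values was not tested. Mt3, the remaining metallothionein gene, ranged over 0.14.

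Glutathione transferases attach glutathione to electrophiles. LG21 alone went with a median of 0.05 over the 19 genes of this list above the filter, 16 lying above 0, where all genes had a median of 0.00 and 46.4% lay above 0. Exact ties enter that share: of all 9969 genes 4625 lay above 0, 3217 below, and 2127 were equal, against 0 equal of the 19. In LG21-treated mice aspirin went with a median of -0.07, 18 of 19 lying below 0, beside 0.00 and 44.6% for all genes. There 4446 of all genes lay below 0, 3381 above, and 2142 were equal, again against 0 equal of the 19. The interaction was below 0 for all 19, as it was for 65.2% of all genes, and its median was -0.10 beside -0.03. It was also below 0 for all 17 genes of the thioredoxin and peroxiredoxin list and for 29 of 39 other NRF2 targets. The list of other NRF2 targets shares genes with both of the other lists, and these are counted again, so the lists are not separate sets. The signs in these lists were not recounted with quantile normalization or cyclic loess. LG21+GA enters both comparisons and the interaction. Mgst1, a membrane-bound member, stood at 9.17 in GA+GA, 9.37 in LG21+GA, 8.90 in GA+Asp, 9.01 in Tep+Asp and 8.91 in LG21+Asp. Gsta3 stood at 9.62, 9.77, 9.48, 9.43 and 9.44 in the same order, so the 3 aspirin arrays were below both others for each gene. This order was found for 5 of the 19, beside 3.8% of all genes. The opposite order was found for 0, beside 8.68%.

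The 17 further genes of the thioredoxin and peroxiredoxin system above the filter had a median of 0.05 with aspirin alone, beside 0.01 for all genes. In the 6 comparisons 0 were 1.2-fold apart, beside 439 of all 9969 genes in any of them, so 0 of 17 is near the background. Glo1, the glyoxalase that disposes of methylglyoxal, differed by -0.59 with LG21 alone. Its levels were 10.19 in GA+GA, 9.61 in LG21+GA, 10.14 in GA+Asp, 9.87 in Tep+Asp and 9.68 in LG21+Asp, so both LG21 arrays were the lowest. Duoxa2, the maturation factor of the peroxide-producing oxidase DUOX2, differed by -0.51 with aspirin in LG21-treated mice and Duox2 by -0.37. With aspirin alone these differences were -0.24 and -0.18.

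**Figure D4:**
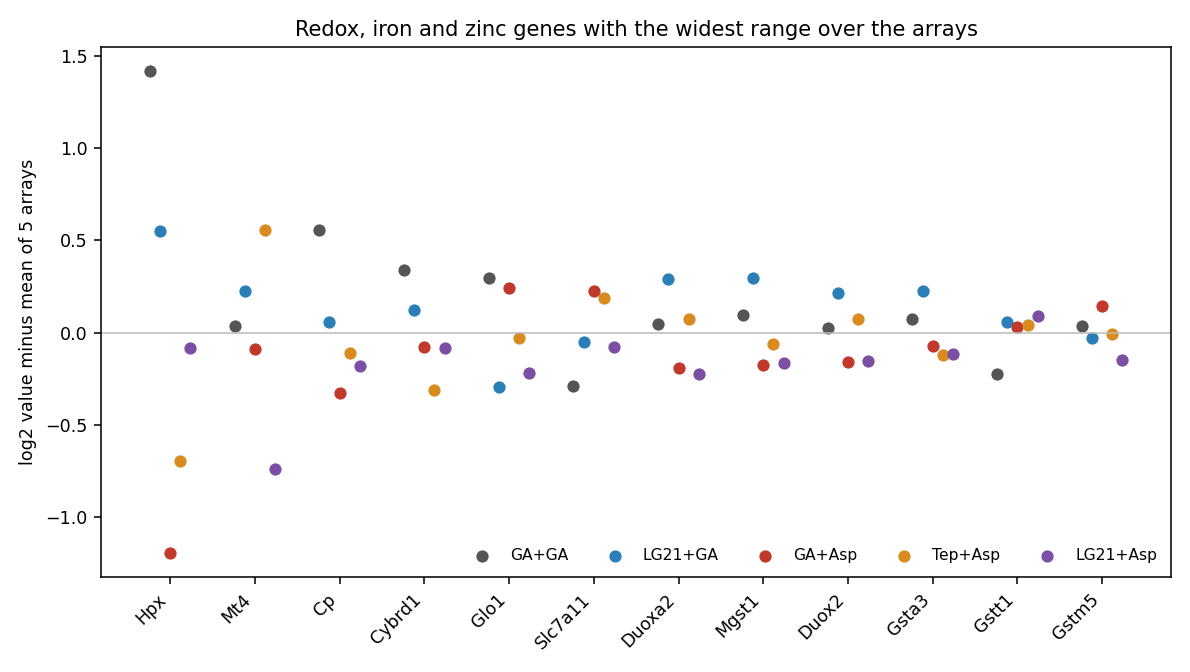
Log2 value less the gene's mean over the 5 arrays (vertical axis) for the 12 genes with the widest range among redox, iron and zinc genes that were 1.2-fold apart in any of the 6 comparisons; colours are the arrays. Hpx spans 2.61 and Mt4 1.30, Cp spans 0.88, and the genes to its right span 0.65 or less.

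The acute stress and glucocorticoid list includes hormone targets known to respond along with metallothioneins. Its 14 genes above the filter had a median of 0.09 with aspirin alone, beside 0.01 for all genes. Of the 14, 1 was at least 1.2-fold higher and 0 lower, where 1.91% of all genes were apart either way. For aspirin in LG21-treated mice the median was 0.00, with 1 higher and 0 lower, beside 0.00 and 1.79% for all genes.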

How the data were processed

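Total RNA of mouse gut was hybridised to 5 arrays, 1 for each group. The log2 values were deposited by the authors after RMA in Expression Console, per the labels; the design text instead names the Exon Array Computational Tool. Software versions and the build are not stated there. The log2 scale was read from the values (1.32 to 13.87). Depth does not apply to arrays, and their number limits the precision.

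Of 35557 probe sets, 21789 name 1 gene in the platform annotation and 1621 several. Symbols were checked through RefSeq gene identifiers (GRCm38.p6), and 0 changed. Gene names only were taken from that table. Differences of log2 values were computed in Python 3.11.15 and genes at least 1.2-fold apart (0.26) were counted among those above the median of all genes. No test was run, since each group has a single array and so no spread of its own; a model over all 5 arrays was not fitted. Quantile normalization and cyclic loess (3 iterations) were run in limma 3.58.1. The other alternatives left out the filter, raised it to the 75th percentile, used thresholds of 1.1-fold, 1.5-fold and 2-fold, took the mean of a gene's probe sets, or took the mean over the 10 genes in place of the median. The counting was tested on simulated data.

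The members and lists were chosen with earlier results of these data known. Text names the 10 members, 4 regulators, up to 4 genes of a list by size of difference in the comparison named, and the 5 nearest genes of the 2 members with the widest range. Slc30a1, Srxn1 and Apoa1 were chosen after their values were seen.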

Additional observations from a re-analysis of the deposited data

How the results depend on the processing

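With 1 array a group there was no replicate to leave out, and no paired analysis was possible because each group has a single array. No member was 1.2-fold apart in any of the 6 comparisons or the interaction under no filter, the stricter filter, the mean of probe sets, quantile normalization or cyclic loess, nor at 1.5-fold or 2-fold. At 1.1-fold, a threshold added after seeing the data, the count went from 0 to 1 with aspirin alone, with LG21 alone, for LG21 before aspirin and in the interaction, and to 2 for aspirin in LG21-treated mice. By construction, a lower threshold lets more genes pass. Over 210 recomputed member differences the largest move was 0.08, and 0 moved by 0.1 or more. The median of the 10 genes moved by at most 0.03. The order of arrays changed for some members. Gclm joined Hmox1, Gpx2 and Nqo1, with all 3 aspirin arrays below the others, under quantile normalization and cyclic loess. The 6 genes strictly lowest in Tep+Asp became 4 under quantile normalization and 5 under cyclic loess and with the mean of probe sets, and the 10 lower in Tep+Asp than in GA+Asp became 7 under both normalizations. Counts over all genes, 131 to 347 in the 7 contrasts, were 417 to 1126 without a filter, 51 to 128 with the stricter one, 611 to 1564 at 1.1-fold, 35 to 87 at 1.5-fold and 3 to 55 at 2-fold. The cause of these shifts in order was not tested. Exact ties restrict what the absence of a difference can show. Whether the high level of Mt2 does so too was not tested.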

Other observations

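Glucocorticoids are known to induce Mt1 and Mt2, and the 3 genes of the acute stress and glucocorticoid list furthest apart with aspirin alone were Zbtb16, Per1 and Tsc22d3. Zbtb16, a transcription factor gene that glucocorticoids induce, stood at 8.60 in GA+GA, 8.83 in LG21+GA, 9.10 in LG21+Asp and 8.98 in Tep+Asp, with GA+Asp 0.40 above the control, so the control was the lowest and the 3 aspirin arrays were above both others. Per1, a clock gene with hormone-responsive promoter elements, stood at 8.61 in GA+GA and between 8.82 and 8.91 on the other 4 arrays. Tsc22d3, which encodes the glucocorticoid-induced leucine zipper protein, differed by 0.24 with aspirin alone and by 0.12 with LG21 alone. Of the 14 genes of the list above the filter, 11 lay above 0 and 3 below with aspirin alone. For aspirin in LG21-treated mice 5 lay above 0 and 6 below, with a median of 0.00. In that comparison Per1 was equal on both arrays and Tsc22d3 differed by -0.07. None of these differences was tested.

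Among the 165 listed genes of redox, iron and zinc handling beside the 10, 155 were measured and 133 passed the filter. Of these 133, 16 had a range of at least 1.2-fold over the 5 arrays, beside 578 of all 9969 genes. In at least 1 of the 6 comparisons 13 were 1.2-fold apart, beside 439 of 9969. These lists were chosen with earlier results of these data known, so the counts are a description only. The following genes were named after their values were seen. The zinc exporter gene Slc30a1, a target of MTF1 as Mt1 is, was listed at 8.02 on all 5 arrays, as 3.56% of genes above the filter were listed at 1 value. The sulfiredoxin gene Srxn1, a target of NRF2, ranged over 0.01.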
